A study of Homo sapiens with 6 samples.

Results

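The ADAM sheddases are cell surface proteases that cut other membrane proteins close to the outer face of the plasma membrane. The 7 genes described here, ADAM8, ADAM9, ADAM10, ADAM12, ADAM15, ADAM17 and ADAM19, were matched by gene symbol in a table that names 22933 genes. Where a symbol stood at several rows, the row with the most RefSeq names was taken, then the one with the highest summed level. The table comes from RNA-Seq of PC-3, an established human cell line from a bone metastasis of prostate adenocarcinoma, with 3 samples in each of 2 groups. Cells of both groups carried the pRetroX-Tet-On-Advanced retrovirus, which supplies the doxycycline-dependent transactivator rtTA2, and had been selected in G418. The tdTom group then received pRetroX-Tight-pPGK-tdTomato, whose red fluorescent protein is driven by the PGK promoter. The TTP-tdTom group received pRetroX-Tight-TTP-pPGK-tdTomato, which adds tristetraprolin (TTP, encoded by ZFP36) under a promoter that needs rtTA2 and doxycycline (Dox). Transduced cells were sorted as a population for tdTom fluorescence, and both groups were kept in 300 ng/ml Dox for 4 h. By design they differed by the TTP insert. The groups are separately transduced lines, and every sample had Dox. Other differences between the lines therefore cannot be told apart from an effect of induced TTP. The comparison asks which mRNAs differ soon after TTP is induced.

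ADAM proteins join a zinc metalloprotease domain to a disintegrin domain, a transmembrane segment and a short cytoplasmic tail. They are made as inactive precursors, and furin-type convertases remove the inhibitory prodomain. Their cuts release growth factors, cytokines, adhesion molecules and receptor ectodomains, a process called shedding, and the membrane stub that remains can be cut again by gamma-secretase. TTP binds AU-rich stretches of the untranslated sequence that follows the stop codon of an mRNA, the 3′UTR, with UAUUUAU as a favored core, and recruits enzymes that shorten the poly(A) tail.

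Expression is given as FPKM, a count of sequenced fragments divided by the length of the transcript and by sequencing depth, so that levels can be compared between genes per unit length. The deposited table holds 1 FPKM value per group and row. No value per sample was used here, so no spread between replicates, no interval and no p-value accompanies any result below, and the number of fragments behind each value is unknown. Differences are log2 ratios of TTP-tdTom over tdTom, and a change is called only by size, at 2-fold or more where the FPKM of either group reaches 1. In bulk RNA, fewer cells with a transcript and less of it per cell cannot be told apart.

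The epithelial keratins KRT8, KRT18 and KRT19 and the adhesion molecule EPCAM had FPKM values from 15.1 to 98.2 in both groups, whereas E-cadherin (CDH1), on a row assigned here to the strand opposite the gene, was below 1. The prostate luminal marker KLK3 was at 1.12 in tdTom and 0.681 in TTP-tdTom. The leukocyte and endothelial markers PTPRC, CD3E, CD14, PECAM1, CDH5 and VWF all lay below 1, while among 4 fibroblast markers COL1A1 was at 4.34 in tdTom and 4.56 in TTP-tdTom, and COL1A2 and COL3A1 were each listed at 0 in 1 group. ZFP36 itself had an FPKM of 5.56 in tdTom and 5.54 in TTP-tdTom, so its row showed no rise in the group labelled TTP-tdTom, and whether fragments of the insert are counted at this row was not analysed here. By other measures the study reports what the label says. Its immunoblots of the TTP-tdTom line showed TTP protein by 4 h of Dox, and its qRT-PCR showed induced TTP mRNA after a longer treatment.

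All 7 sheddase genes were lower with TTP, but by very different amounts. ADAM9 alone passed the 2-fold threshold and kept 33.9% of its tdTom level. ADAM10 kept 58.9%, ADAM12 73.5% and ADAM17 74.8%. ADAM15, ADAM19 and ADAM8 kept 88.6%, 91.6% and 92.8%. A lower value was the common case in this comparison, since 63.8% of the 20805 genes above 0 in both groups were lower. Of the 6 sheddases that reached an FPKM of 1, all were lower, where 78.5% of the 13004 genes at this level were. Only ADAM8 did not reach it. One of the 6 was at least 2-fold lower, beside 8.65% of the 13004 genes, and none was at least 2-fold higher, beside 2.45%. ADAM9 and ADAM10 were at least 1.5-fold lower, so that 2 of 6 passed that mark, beside 22.8% of all genes. The median log2 ratio of the 6 was -0.43, and that of all 13004 genes was -0.23. With the median gene below 0, the small differences of ADAM8, ADAM15 and ADAM19 changed sign when values were centred on the median gene or scaled to the same upper quartile, whereas the other 4 genes kept their sign. With upper-quartile scaling the log2 ratio was -1.16 for ADAM9 and -0.36 for ADAM10, but -0.0427 for ADAM12 and -0.0179 for ADAM17, next to 0.

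**Figure D1:**
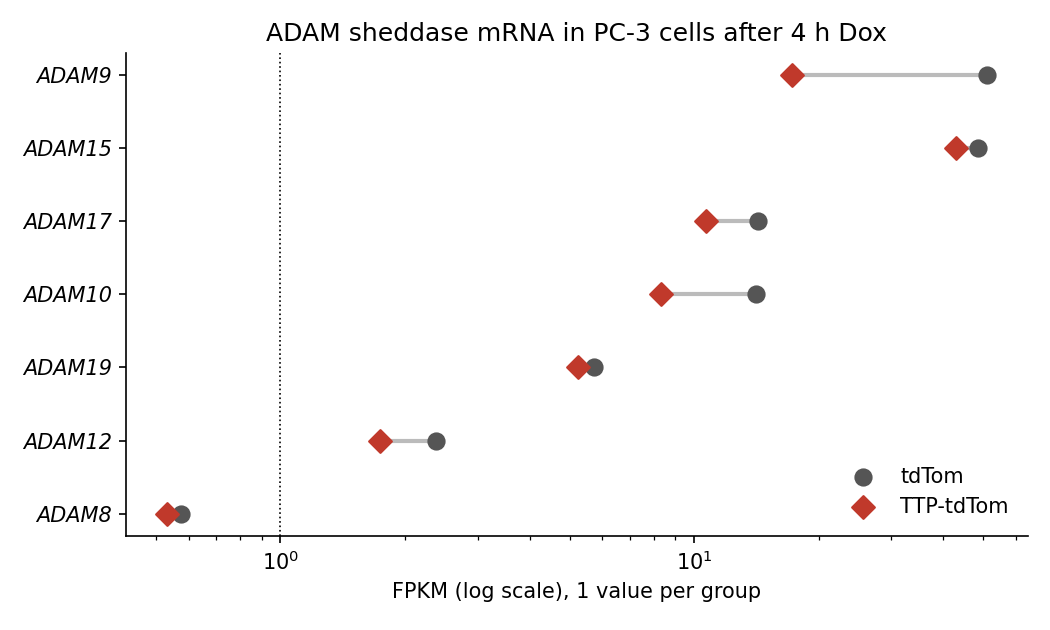
FPKM of the 7 ADAM sheddase genes on a log axis, with 1 pooled value per group (gray circles, tdTom; red diamonds, TTP-tdTom) and a dotted line at an FPKM of 1. All diamonds lie left of their circles on the deposited scale, ADAM9 by the widest gap (50.9 to 17.2), while the short gaps of ADAM8, ADAM15 and ADAM19 change sign with median centring or upper-quartile scaling.

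Copies of the TTP-binding core were looked for in the longest 3′UTR that GENCODE release 29 gives each gene, on the sense strand and counting overlapping copies. The heptamer UAUUUAU was found in ADAM10, with 3 copies, and in ADAM12, with 1 copy, and in none of the other 5 genes. The 4 sites are shown because they are the copies of this heptamer found in the sheddases. Whether PC-3 cells use these 3′UTRs, and whether TTP binds there, was not tested. Each is written as DNA in the sense of the mRNA with 10 bases on either side, and capitals mark the heptamer.
ADAM10 site 1: gcttgtgacaTATTTATtgcttctgtt
ADAM10 site 2: tatgtttagtTATTTATgaaactctca
ADAM10 site 3: atatgcactgTATTTATagaatatgaa
ADAM12 site 1: caagatgcagTATTTATcaagtgaagc
In ADAM10 the heptamers start at bases 1320, 2748 and 8594 of a 3′UTR of 8740 bases, and in ADAM12 the single copy starts at base 2275 of 4898. Long 3′UTRs often hold such a heptamer. Among genes with a 3′UTR within 10% of the same length, 82.2% had at least 1 copy for ADAM10 and 72.0% for ADAM12.

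ADAM17, also called TACE, is the sheddase of tumor necrosis factor and of several ligands of the epidermal growth factor (EGF) receptor. It lies on chromosome 2 (GRCh37, chr2:9614520-9695945, a merged interval that also holds the gene IAH1 on the other strand). Its FPKM was 14.3 in tdTom and 10.7 in TTP-tdTom, a log2 ratio of -0.42 that shrank to -0.18 with median centring and -0.0179 with upper-quartile scaling. Of the 13004 genes, 32.5% had a ratio as low or lower. IAH1, in the same interval, went from 9.06 to 8.40. No UAUUUAU was found in the ADAM17 3′UTR of 1691 bases, where 37.9% of genes of like length had one. The shorter pentamer AUUUA, which UAUUUAU contains, stood there 7 times, or 4.14 per kilobase, against a median of 1.81 per kilobase at like length.

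ADAM10 is the sheddase of Notch receptors, of the amyloid precursor protein and of cadherins. Its interval on chromosome 15 (chr15:58886866-59042177) also holds HSP90AB4P, a pseudogene with an FPKM of 0.349 in tdTom and 0.109 in TTP-tdTom. ADAM10 went from 14.1 to 8.30, a log2 ratio of -0.76 that was -0.52 with median centring and -0.36 with upper-quartile scaling, and 15.7% of all genes had a ratio as low or lower. ADAM10 and ADAM17 therefore stood at nearly the same level in tdTom, with a ratio of 0.986, and apart in TTP-tdTom, with a ratio of 0.777. Whether this shift exceeds the spread between samples cannot be told from 1 value per group. The ADAM10 3′UTR, with the 3 sites shown above, also held 27 copies of AUUUA, or 3.09 per kilobase, against a median of 2.34 at like length.

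ADAM9, whose protease sheds growth factor precursors and is widely expressed in epithelial tumors, was the most abundant sheddase mRNA in tdTom. It lies on chromosome 8 (chr8:38854336-38963079) in an interval with no other named gene. Its FPKM was 50.9 in tdTom and 17.2 in TTP-tdTom, which is 2.95-fold lower, a log2 ratio of -1.56. Of the 13004 genes, 1.67% had a ratio as low or lower. The study also picked ADAM9 from these same libraries for follow-up. Its qRT-PCR after 4 h of Dox found ADAM9 mRNA lower in the TTP-tdTom cells than in the tdTom cells. The values here are those the choice was made from, so they are not separate evidence for it. The fall stayed beyond 2-fold under every scaling, pseudocount and row choice that was tried, with log2 ratios between -1.56 and -1.16. No UAUUUAU was found in its longest 3′UTR of 1922 bases, nor in the 1301 bases of its RefSeq-paired transcript, and 41.6% of genes of like length had one. AUUUA was found 8 times in the longest 3′UTR, or 4.16 per kilobase, where genes of like length had a median of 1.98. The absence of these letters from an annotated 3′UTR says nothing of whether TTP binds the mRNA.

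ADAM15, an ADAM with an integrin-binding RGD motif in its disintegrin domain, was the second sheddase mRNA in tdTom and the first in TTP-tdTom. It carries 9 RefSeq names and lies on chromosome 1 (chr1:155006282-155042029), in an interval shared with DCST1, LOC100505666 and EFNA4. ADAM15 had an FPKM of 48.5 in tdTom and 43.0 in TTP-tdTom, a log2 ratio of -0.17 that turned to 0.07 with median centring and 0.23 with upper-quartile scaling. Its neighbor EFNA4, an ephrin ligand on the same strand, went from 17.7 to 19.4. Of all genes, 57.9% had a ratio as low as that of ADAM15 or lower. Its 3′UTR was the shortest of the 7, with 312 bases, and held no UAUUUAU and no AUUUA.

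ADAM12 and ADAM19, which are also known as meltrin alpha and meltrin beta, were minor components. ADAM12 (chr10:127701648-128077127) had an FPKM of 2.37 in tdTom and 1.74 in TTP-tdTom, a log2 ratio of -0.44 that shrank to -0.20 with median centring and -0.0427 with upper-quartile scaling. ADAM19 (chr5:156903687-157003819), a sheddase of neuregulins, went from 5.73 to 5.25, a log2 ratio of -0.13 that turned to 0.11 with median centring and 0.27 with upper-quartile scaling. The ADAM19 3′UTR of 3645 bases held no UAUUUAU, where 61.0% of genes of like length had one, and 5 copies of AUUUA. The density of this pentamer was below the like-length median in both genes, at 1.63 per kilobase against 2.27 for ADAM12 and 1.37 against 2.14 for ADAM19. Both symbols also stood at rows assigned here to the opposite strand, and with all rows of a symbol summed the log2 ratios shrank to -0.14 for ADAM12 and -0.02 for ADAM19. ADAM8 (chr10:135075883-135090407), a sheddase best known from leukocytes, was at 0.574 in tdTom and 0.533 in TTP-tdTom. Its log2 ratio of -0.11 lay below the FPKM minimum and turned to 0.13 with median centring and 0.29 with upper-quartile scaling, and its 3′UTR of 815 bases held no copy of the heptamer or of AUUUA.

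In tdTom the order of the levels was ADAM9, ADAM15, ADAM17, ADAM10, ADAM19, ADAM12 and ADAM8. In TTP-tdTom the order was the same except that ADAM15 stood before ADAM9. The neighbors ADAM9 and ADAM15, and ADAM17 and ADAM10, were close in tdTom, and without values per sample it cannot be said which neighbors differ beyond their spread. The ratio of ADAM15 to ADAM9 went from 0.953 to 2.49. The FPKM values of the 7 genes summed to 136.5 in tdTom and 86.8 in TTP-tdTom, so that 63.5% was left. On this scale ADAM9 made up 33.7 of the 49.8 FPKM that were lost, or 67.7%, and its part was 89.9% with median centring and 128.3% with upper-quartile scaling. Without ADAM9 the sum went from 85.6 to 69.5, so that 81.2% was left, but 96.0% was left with median centring and 107.3%, a higher sum in TTP-tdTom, with upper-quartile scaling. The share of ADAM9 in the summed sheddase mRNA went from 37.3% to 19.9%, and that of ADAM15 from 35.5% to 49.6%. ADAM17 made up 10.5% and 12.3%, and ADAM10 10.3% and 9.57%. These shares of the sum, unlike the shares of the loss, do not depend on how the groups are scaled to each other.

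**Figure D2:**
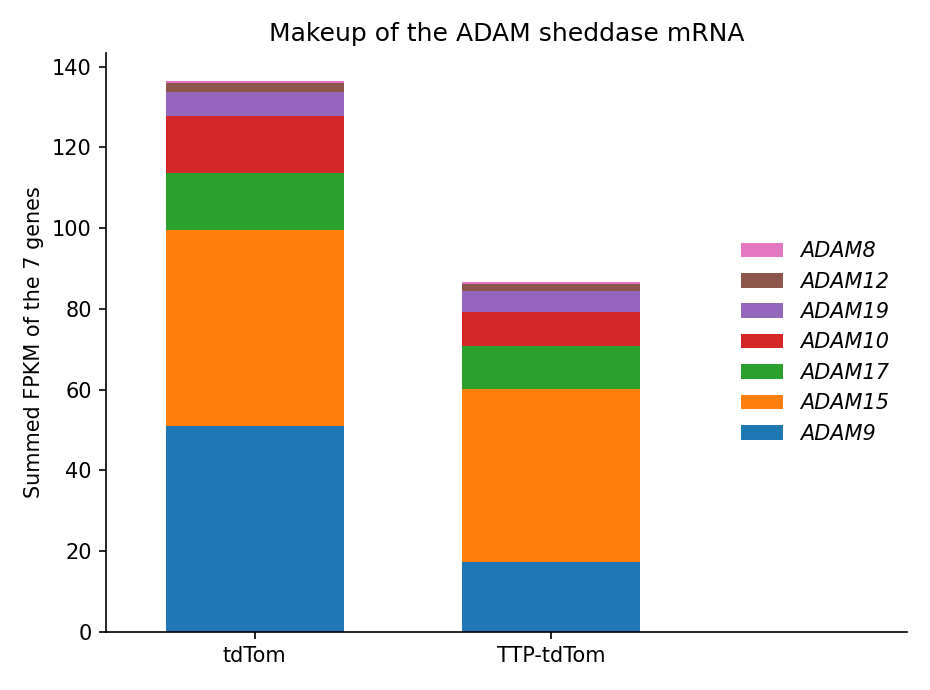
Summed FPKM of the 7 sheddase genes in each group (stacked bars, 1 pooled value per gene and group, axis from 0). On the deposited scale shown, the total goes from 136.5 to 86.8 and the ADAM9 segment accounts for 67.7% of that loss, whereas with upper-quartile scaling the other 6 genes together are not lower (107.3% left).

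The log2 ratio in these libraries moved with the GC content of the transcript, and the sheddases spread over most of that range. In the 10% of genes with the lowest GC content the median log2 ratio was -0.75, in the next decile -0.57, and in the decile with the highest GC content -0.09. GC content was 38.3% for the ADAM10 transcript, 39.4% for ADAM9, 42.1% for ADAM17, 47.0% for ADAM12, 53.7% for ADAM19, 62.7% for ADAM15 and 63.8% for ADAM8. The order of GC content thus nearly follows the order of the log2 ratios, with neighbors exchanged in the pairs ADAM9 and ADAM10, ADAM12 and ADAM17, and ADAM15 and ADAM19. ADAM10 differed from the median of its own decile by -0.02, ADAM17 by -0.01, ADAM19 by 0.02, ADAM15 by -0.09 and ADAM12 by -0.19. ADAM9 differed by -0.99, and 2.53% of the 1185 genes of its decile had a ratio as low or lower. With the GC content of the GENCODE transcript that has the longest 3′UTR, which for ADAM9 is a partial one, the difference was -0.81. Over the 6 sheddases that reached an FPKM of 1, the median difference from the decile was -0.05. The part of GC content in these results was not tested.

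**Figure D3:**
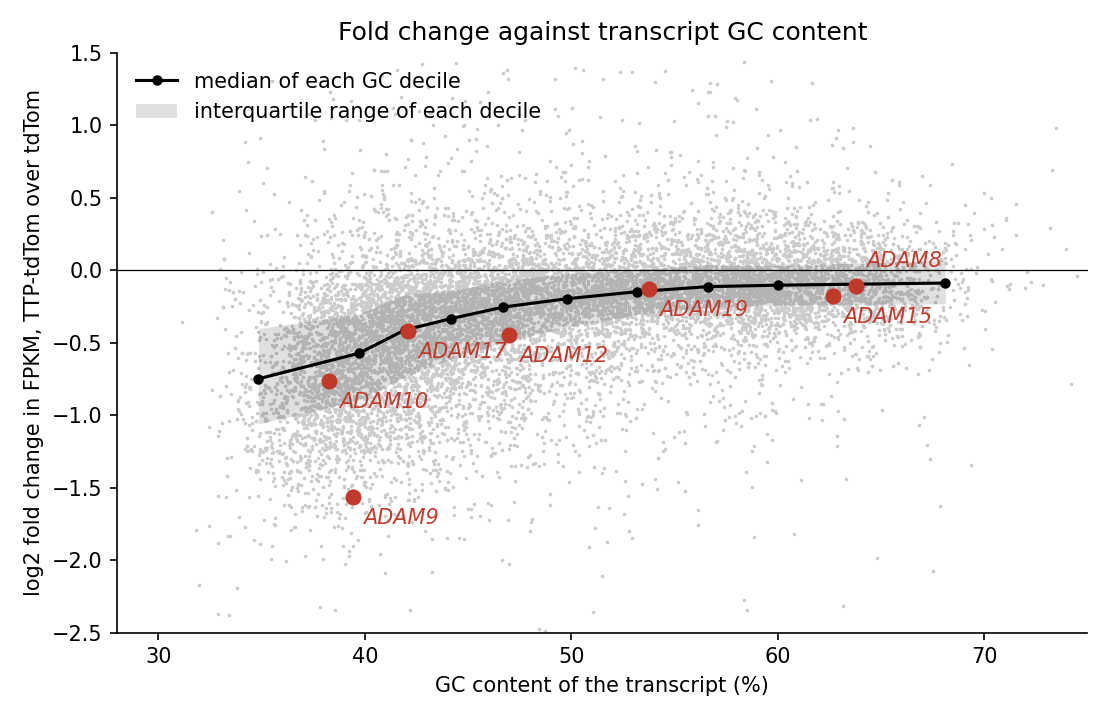
Log2 FPKM ratio of TTP-tdTom over tdTom against transcript GC content for 11855 genes (gray points, those beyond the axis limits not drawn), the 7 sheddases in red (ADAM8 added although it is below an FPKM of 1 and not among the gray points), with decile medians (black line) and the interquartile range of each decile (shading). ADAM10, ADAM17 and ADAM19 lie within 0.02 of their decile medians, whereas ADAM9 differs from its own by -0.99; ADAM8, ADAM15 and ADAM19 lie just under 0 here and move above 0 with median centring or upper-quartile scaling.

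The presence of UAUUUAU went with lower ratios over all genes. The 4273 genes with at least 1 copy had a median log2 ratio of -0.44, and the 7582 genes without one had a median of -0.17. Ratios also moved with GC content, and long 3′UTRs often hold the heptamer, as described above. The contrast was not made within bins of GC content or of 3′UTR length, so what lies behind it was not tested. The heptamer was found in 36.0% of all genes and in 2 of the 7 sheddases. The longer nonamer UUAUUUAUU was in 9.46% of all genes and in none of the sheddases. Within the family, ADAM9, with the lowest ratio, had no heptamer, and ADAM10, with the next lowest, had the most.

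The genes whose pairs of FPKM values lay nearest to those of a sheddase were found by the distance between log2 levels over the 2 groups. For ADAM9 these were MRPL42, a mitochondrial ribosomal protein gene, at 51.1 and 17.5, and MMADHC, which acts in cobalamin metabolism, at 51.9 and 17.2. For ADAM10 they were DENND5A at 14.2 and 8.41 and the transcription factor gene CREB5 at 13.8 and 8.24. For ADAM17 they were ERCC6L at 14.2 and 10.7 and XBP1, a transcription factor of the unfolded protein response, at 14.2 and 10.7. With 2 values per gene, likeness says only that level and ratio are close.

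Partners, inhibitors, relatives and substrates of the sheddases were described over 12 lists of 118 genes. Of these, 117 were in the table and 73 reached an FPKM of 1. On the deposited scale 58 of the 73, or 79.5%, were lower in TTP-tdTom, close to the 78.5% of all genes. With upper-quartile scaling 24 were lower, or 32.9%, beside 33.8% of all genes. At least 2-fold lower were 9, or 12.3%, beside 8.65% of all genes, and 1 was at least 2-fold higher. Nothing is read from these shares, since BTC and ADAMTS20 reached an FPKM of 1 only in tdTom, and the 1 higher gene, DLL4, only in TTP-tdTom. The median log2 ratio of the 73 was -0.25. With median centring 5 of the 9 stayed at least 2-fold lower, namely ADAMTS20, MAD2L1, PRNP, MICB and KITLG, where 4.16% of all genes were. With upper-quartile scaling ADAMTS20 did, where 330 of all 13004 genes were, and the ADAMTS20 row was assigned to the strand opposite the gene.

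Of the convertases, iRhom proteins and tetraspanins that mature and steer the sheddases, no gene at an FPKM of 1 or more passed 2-fold in either direction, beside 8.65% of all genes lower and 2.45% higher, shares at which few of so small a number would pass. Of the convertases, which remove the prodomain, FURIN went from 1.98 to 1.66 and PCSK7 from 6.80 to 5.86. The iRhom proteins escort ADAM17 to the cell surface, and there RHBDF2 went from 4.96 to 4.72, RHBDF1 had a log2 ratio of -0.27 and the iRhom-binding FRMD8 was at 6.14 and 6.15. The TspanC8 tetraspanins escort ADAM10. Of these, TSPAN5, the most abundant, went from 17.8 to 14.9, TSPAN33 had a log2 ratio of -0.19 and TSPAN17 one of -0.10. TSPAN15 went from 9.85 to 10.6, TSPAN10 had a log2 ratio of 0.11, and TSPAN14 was at 0.0308 and 0.0397. In these 3 groups, every gene at an FPKM of 1 or more that was lower turned higher with upper-quartile scaling.

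Of 10 proteins that bind cytoplasmic tails of ADAMs, 8 were lower, or 80.0% beside 78.5% of all genes, and with upper-quartile scaling 3 were. One gene of the 10 was at least 2-fold lower, close to the 8.65% of all genes, a call it lost with upper-quartile scaling. That gene was MAD2L1, the spindle checkpoint protein MAD2, which went from 20.8 to 8.05, a log2 ratio of -1.37, and differed from its GC decile by -0.80. The sorting nexin gene SNX9 had a log2 ratio of -0.67 and SH3PXD2A, which encodes the podosome scaffold TKS5, one of -0.53. SNX33 and the kinase gene SRC were higher, at 0.29 and 0.17.

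The inhibitors kept most of their level. TIMP1 was the most abundant, at 157.5 in tdTom and 141.9 in TTP-tdTom, a log2 ratio of -0.15 that turned positive with median centring. TIMP2 went from 46.0 to 34.1, a log2 ratio of -0.43, and RECK, a membrane-anchored inhibitor, from 7.85 to 6.16, a log2 ratio of -0.35 that turned positive with upper-quartile scaling. TIMP3, the inhibitor with the broadest action on ADAMs, was at 0.200 and 0.211, and TIMP4 at 0.483 and 0.524, both below the FPKM minimum.

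Among the substrates, 4 EGF receptor ligands reached an FPKM of 1, and BTC and AREG did so only in tdTom, the group where they are higher, so no median is read from this list. HBEGF, heparin-binding EGF-like growth factor and a substrate of ADAM9, ADAM12 and ADAM17, went from 6.53 to 2.82, a log2 ratio of -1.21, and differed from its GC decile by -1.01. BTC went from 1.17 to 0.552, AREG from 1.14 to 0.761 and TGFA from 2.78 to 2.07, all near the FPKM minimum, while EREG was at 0.788 and 0.936, below it. HBEGF and BTC were the 2 genes at least 2-fold lower, beside 8.65% of all genes, and 0 were with median centring or upper-quartile scaling. Of these, HBEGF held the heptamer, with 2 copies in a 3′UTR of 1456 bases on chromosome 5, at bases 604 and 1413. Among the other ligands, EREG, which was not lower, held 4 copies, TGFA held 2 and AREG held 1. The HBEGF sites are shown, in the same form as above, because this ligand and its sheddase ADAM9 were both at least 2-fold lower on the deposited scale. HBEGF lost that call with median centring and ADAM9 did not.
HBEGF site 1: ttaaattataTATTTATtttattctat
HBEGF site 2: acctggttcaTATTTATactttgcaat

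Of the Notch receptors and ligands, which ADAM10 and ADAM17 cut, JAG1 went from 14.4 to 7.36 and NOTCH1 from 3.50 to 1.79, each a log2 ratio of -0.97 that just missed the threshold. These 2 genes differed from their GC deciles by -0.77 and -0.88. JAG1 held 5 copies of UAUUUAU and NOTCH1 held 4, and in both genes the first 2 copies overlap, as the stretches shown here for that reason make visible.
JAG1 sites 1 and 2: atcatagtttTATTTATATTTATtgac
NOTCH1 sites 1 and 2: ttttttttagTATTTATTTATgtactt
NOTCH2 went from 9.03 to 7.87, a log2 ratio of -0.20 that turned positive with median centring, and JAG2 had a log2 ratio of 0.28. DLL4 was the 1 gene of the lists at least 2-fold higher, from 0.275 to 2.11, but its row was assigned here to the strand opposite the gene. NOTCH3, below the FPKM minimum, was at 0.729 and 0.0711, also on a row on the other strand. The heptamer was not confined to genes with low ratios. NOTCH2 and DLL4 held 1 copy each and JAG2 held none. In other lists MMP16 held 7 copies at a log2 ratio of -0.10, and ADAM22 held 4 at -0.14.

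Of 19 other substrates at an FPKM of at least 1, 17 were lower on the deposited scale, or 89.5% beside 78.5% of all genes, and 9 with upper-quartile scaling, or 47.4% beside 33.8%. At least 2-fold lower were PRNP, KITLG, MICB and SDC4, or 4 of 19 beside 8.65% of all genes, and 3 were with median centring and 0 with upper-quartile scaling. PRNP, the prion protein gene, had the highest tdTom level of all genes in the lists and went from 378.7 to 148.5, a log2 ratio of -1.35. It differed from its GC decile by -1.10 and held no UAUUUAU. KITLG, the membrane-bound ligand of KIT, went from 27.9 to 11.2, a log2 ratio of -1.32 and a difference from its GC decile of -0.57, and held 4 copies. MICB, a ligand of the receptor NKG2D, went from 24.5 to 10.3, a log2 ratio of -1.25 and a difference from its GC decile of -1.05, and held 1 copy. SDC4, a heparan sulfate proteoglycan named because the count is small, went from 9.51 to 4.72, differed from its GC decile by -0.81 and held 1 copy. The abundant ADAM10 substrates CD44, APP and CDH2, named after their values were seen, had log2 ratios of -0.69, -0.34 and -0.40. IL6R and TNFRSF1A, receptors that ADAM17 sheds, were higher, at 0.39 and 0.09. TNF was listed at 0 in tdTom and at 0.779 in TTP-tdTom, on a row assigned to the other strand.

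Of the 6 gamma-secretase subunits, which act after the sheddases, 4 were lower, or 66.7% beside 78.5% of all genes. All 4 turned higher with upper-quartile scaling, where 33.8% of all genes were lower. None passed 2-fold, beside 8.65% of all genes lower and 2.45% higher, shares at which few of 6 genes would pass. APH1B had a log2 ratio of -0.36 and NCSTN one of -0.22, while APH1A and PSENEN were at 0.06 and 0.05. Of the surface proteases outside the ADAM family, 5 reached an FPKM of 1 and all 5 were lower, where 78.5% of all genes were, with BACE2 at 19.7 and 16.4, and log2 ratios of -0.45 for MMP14, -0.25 for BACE1, -0.10 for MMP16 and -0.08 for MMP24, the last from a row on the other strand. With upper-quartile scaling only MMP14 of these stayed lower, beside 33.8% of all genes.

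Relatives of the sheddases were mostly scarce. Of 14 other ADAM genes, 3 reached an FPKM of 1, namely ADAM21, ADAM22 and ADAM23, with log2 ratios of -0.51, -0.14 and 0.06, ADAM21 reached it only in tdTom, where it was higher, and the highest of them, ADAM23, was at 2.58 in tdTom. Of 19 genes for the secreted ADAMTS proteases, 7 did. ADAMTS1, the most abundant, went from 8.01 to 5.94. ADAMTS6 went from 2.93 to 1.30, a log2 ratio of -1.18, and ADAMTS20 from 1.22 to 0.350, on a row assigned to the other strand. ADAMTS15 and ADAMTS16 were higher, with log2 ratios of 0.78 and 0.44, at FPKM values up to 3.08, and ADAMTS16 reached an FPKM of 1 only in TTP-tdTom, where it was higher.

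**Figure D4:**
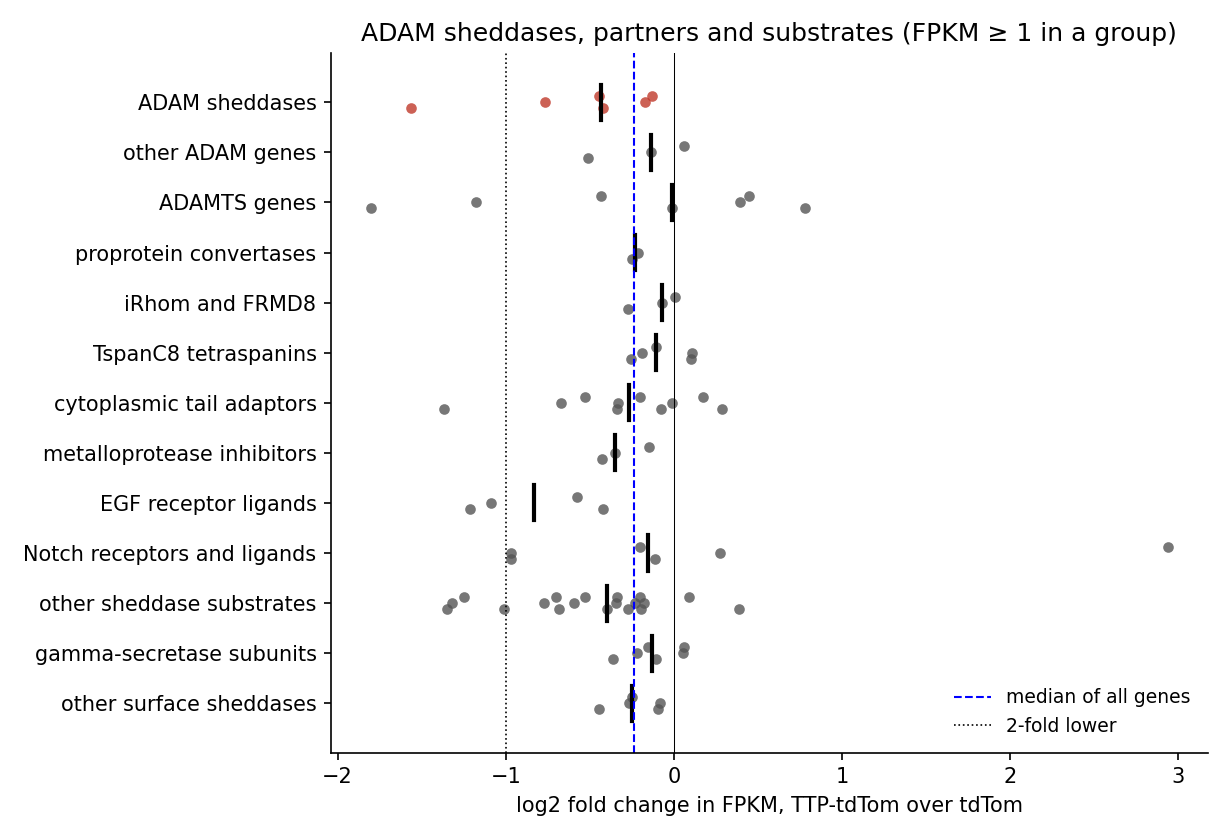
Log2 FPKM ratio of TTP-tdTom over tdTom for every listed gene that reaches an FPKM of 1 (dots; ADAM sheddases in red), with list medians (black bars), the median of all genes (dashed, -0.23) and the 2-fold mark (dotted). ADAM9 is the 1 sheddase left of the 2-fold mark, 2 of the 4 EGF receptor ligands (BTC and AREG) reach an FPKM of 1 only in tdTom, the far right dot is DLL4 from a row on the other strand, and dots between -0.40 and 0 move above 0 with upper-quartile scaling.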

How the data were processed

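The authors sequenced total RNA of 6 PC-3 samples, 3 tdTom and 3 TTP-tdTom. Per the submitters' notes and the methods, read pairs of stranded libraries were placed on Hs37D5 (GRCh37) by TopHat2 2.0.13, and Cufflinks 2.2.1 was used for assembly and comparison. In the deposited table, which the authors made from these alignments, each of 406165 rows gives the FPKM of both groups, and 30202 rows carry a gene symbol. Its columns of the authors' comparison (fold changes, test statistics, p and q) were not used. Value columns of other samples numbered 0. The tests planned for values per sample were not run, and whether the samples were separate cultures is not stated in the labels. The gene members and lists were chosen with earlier results of these data known. Genes were named by rule: the 7 members, ZFP36, markers, the most abundant gene and the 3 lowest and 2 highest log2 ratios of each list, TIMP1 to TIMP4, RHBDF2, TSPAN14, TSPAN15, and the 2 nearest genes of ADAM9, ADAM10 and ADAM17. Exceptions are stated where they occur, and a few genes of this rule are not reported here.

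Log2 ratios were computed from the FPKM values without a pseudocount. Transcript sequences came from GENCODE release 29, matched by symbol for 11855 of 13004 genes, or 91.2%. GC content was taken from the longest transcript paired with a RefSeq name of the row (97.8% of these genes), a choice made after both candidates had been seen. The strand of a row was inferred from the order of the table, and it matched GENCODE for 99.4% of 14820 symbols with a single row. The functions were tested on simulated data. Alternatives were 3 scalings, pseudocounts of 0.1 and 1, other FPKM minimums and row choices, a 1.5-fold threshold, 20 GC bins and deciles of length. The software was Python 3.11.15, pandas 2.3.3, numpy 2.4.6 and matplotlib 3.10.9.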

Additional observations from a re-analysis of the deposited data

Results flagged for a closer look

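The symbols ADAM12 and ADAM19 stood at further rows that were assigned to the strand opposite the gene. These rows entered only the alternative in which all rows of a symbol were summed. The ADAM12 row had an FPKM of 0.0251 in tdTom and 0.427 in TTP-tdTom, so it was higher in TTP-tdTom while the row of the gene itself was lower, and both values lay under the FPKM minimum of 1. The ADAM19 row that was higher in TTP-tdTom had an FPKM of 2.06 in tdTom and 2.43 in TTP-tdTom, and the other one 0.593 and 0.580. Whether these rows hold antisense transcripts, other transcripts or misassigned fragments was not tested.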

How the results depend on the processing

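No paired analysis was possible because the table holds 1 value per group, and for the same reason no replicate could be left out. ADAM9 remained the 1 sheddase at least 2-fold lower under every alternative except the 1.5-fold threshold, where ADAM10 joined it and the count was 2. The 4 scalings, the deposited one included, differ by what they add to every log2 ratio: 0.24 for median centring, 0.05 for the same sum and 0.40 for the same upper quartile. Sheddases lower with TTP numbered 4 of 7 in place of 7 with median centring, and likewise with the same upper quartile. Of the 6 that reached an FPKM of 1, 4 were lower with median centring and with the same upper quartile, or 66.7% each. All 6 were lower on the deposited scale and with the same sum. Of all genes at this level, 49.3% were lower with median centring and 33.8% with the same upper quartile. Median centring turned ADAM8 to 0.13, ADAM15 to 0.0669 and ADAM19 to 0.11, and the same upper quartile turned them to 0.29, 0.23 and 0.27. The median log2 ratio of the sheddases, -0.43, was -0.19 with median centring, -0.38 with the same sum, -0.0303 with the same upper quartile, -0.42 with a pseudocount of 0.1, -0.34 with a pseudocount of 1, -0.42 with no FPKM minimum, -0.59 at an FPKM of at least 10 and -0.30 with all rows of a symbol summed. The median relative to the GC decile, -0.05, was -0.0556 with the same sum, -0.0658 with the same upper quartile, -0.0634 with a pseudocount of 1, -0.12 with no FPKM minimum, -0.0431 with summed rows, -0.0673 with 20 GC bins and -0.10 with deciles of transcript length. The 9 of 73 list genes at least 2-fold lower became 5 of 73 with median centring, beside 4.16% of all genes, 1 of 76 with the same upper quartile (ADAMTS20, from a row on the other strand), beside 2.42%, 4 of 73 with a pseudocount of 1, beside 5.24%, 4 of 28 at an FPKM of at least 10, beside 10.8%, and 16 of 73 at 1.5-fold, beside 22.8%. Of the single sheddases' log2 ratios under the alternatives, 39 were equal to 2 decimals, 25 moved and 6 changed sign, those given above. Many of the 39 could not have moved, so their number does not show stability. The FPKM minimum does not enter the ratio of a single gene, and a row choice cannot change a symbol with 1 row. The row on the gene's own strand, the transcript with the longest 3′UTR for GC content and the rescaled sums of FPKM were alternatives chosen after seeing the data. FPKM values hold no counts, so the precision at low levels, as for ADAM8 and ADAM12, is unknown.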
